A study of Mus musculus with 18 samples.

Results

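The 10 transcripts described here encode proteins that the liver secretes into plasma, and they were measured by RNA sequencing in mouse kidney. They are Alb, Apoa1, Apoa2, Apoc3, Apoh, Ttr, Serpina1a, Fga, Fgb and Ahsg, taken by gene symbol from a table of 19545 gene rows in which all 10 were present. Values are FPKM, read numbers scaled by transcript length and library size, so levels of different genes can be set side by side per length. The 18 libraries came from kidneys of ICR mice, an outbred stock, all aged 10 weeks, in 6 groups of 3. The groups were HS_AOS_FMT (high fat diet and STZ with the FMT labelled AOS 10 mg/kg), HS_control_FMT (high fat diet and STZ with the FMT labelled control), HS_AOS (high fat diet and STZ with AOS at 10 mg/kg), HS (high fat diet and STZ alone), AOS (AOS at 10 mg/kg without diet or STZ) and control. STZ is streptozotocin, a toxin of the pancreatic beta cell that is used to make rodents diabetic. The labels spell out neither AOS nor FMT. The series was made to ask what FMT does to a kidney damaged by the diet and STZ, and nothing in the labels ties the 3 libraries of a group to different animals. P-values therefore measure the spread between these samples, which may be technical. Read counts and depth are unknown, since the table holds FPKM only.

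Hepatocytes make most of the plasma proteins. The proximal tubule of the kidney shares the transcription factor HNF4A with hepatocytes, and it takes up filtered plasma proteins at its brush border. A plasma protein transcript in a kidney library can thus belong to a tubule cell, or to liver RNA carried into the sample along with many other hepatocyte transcripts. The question put to the data was whether the 10 transcripts moved together over libraries or singly.

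The promoters of Alb, Fgb, Fga and Apoh are printed because the first 2 genes were highest in the same libraries and the other 2 were not. Each line gives the 150 bases before the RefSeq start of the gene, read 5′ to 3′ on the gene's strand, from the RefSeq table of build GRCm38.p6. Capitals mark CCAAT, a common promoter box chosen after the sequences were seen, or the reverse complement ATTGG.
Alb: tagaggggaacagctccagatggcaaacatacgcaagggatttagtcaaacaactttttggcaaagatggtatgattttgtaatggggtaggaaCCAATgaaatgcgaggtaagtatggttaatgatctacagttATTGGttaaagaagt
Fgb: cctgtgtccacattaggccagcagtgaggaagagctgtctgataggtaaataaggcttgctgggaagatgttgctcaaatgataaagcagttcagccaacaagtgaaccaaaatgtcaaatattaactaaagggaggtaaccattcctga
Fga: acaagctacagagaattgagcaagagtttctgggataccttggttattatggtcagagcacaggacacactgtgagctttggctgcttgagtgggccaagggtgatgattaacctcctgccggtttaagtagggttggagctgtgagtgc
Apoh: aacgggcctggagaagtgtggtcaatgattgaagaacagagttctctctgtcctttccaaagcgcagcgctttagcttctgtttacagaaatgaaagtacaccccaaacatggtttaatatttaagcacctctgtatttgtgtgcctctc
Alb, the main carrier protein of plasma, has its window at chr5:90460720-90460869 on the plus strand. Fgb, the beta chain of the clotting protein fibrinogen, has its window at chr3:83049864-83050013 on the minus strand. Fga, the alpha chain of the same protein, lies 8.6 kb from Fgb, with its window at chr3:83026003-83026152 on the plus strand. Apoh, a phospholipid-binding plasma protein also called beta-2-glycoprotein I, has its window at chr11:108395147-108395296 on the plus strand. Of the 10 genes, 8 were in the promoter table, with 9 promoters, and 3 of the 9 held these letters on either strand in this window: those of Alb, Apoa2 and Serpina1a. The same letters occurred in 24.5% of all 32851 promoters in windows of that length. CAAAGTCCA, part of an HNF4 site, was in 0 of the 9, against 0.271% of all promoters. A match is a description of letters and not a binding site. The CCAAT letters were in neither the Fgb window, a gene below 1 FPKM in 15 of 18 libraries, nor the Fga window, a gene above 3 FPKM in all 18.

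The samples were kidney by their markers: all 18 proximal tubule genes listed were above 0 in every library, led by Kap (15798 to 155154 FPKM), Slc34a1, Miox and Keg1. The number of genes above 0 per library was 15773 to 17270. Some libraries stood apart. HS replicate 3 had the highest summed level of 10 fat genes (1490 FPKM, against a median of 410 over the 18 libraries) and of 9 erythroid genes (15571 FPKM, median 5087), and 590 FPKM of 13 adrenal genes (median 2.20). Adrenal transcripts such as Hsd3b1, Cyp21a1, Cyp11a1 and Star were also high in control replicate 3, with a sum of 937 FPKM, and in HS_AOS_FMT replicate 2, with 420 FPKM. Control replicate 3 had in addition the lowest Kap and the highest summed level of the 15 injury and acute phase genes (Spp1, Clu, C3 and Stat3 leading), 3045 FPKM, with Spp1 at 2434 FPKM against 236 to 604 FPKM elsewhere. The numbers of transcripts higher and lower in each comparison with HS are given below with and without HS replicate 3, and those with control with and without control replicate 3.

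Levels of the 10 transcripts spanned a wide range. By mean over the 18 libraries the order was Apoc3 at 17.2, Apoh at 10.8, Alb at 6.98, Apoa2 at 6.56, Fga at 5.35, Ttr at 4.55, Apoa1 at 1.18, Ahsg at 0.807, Fgb at 0.446 and Serpina1a at 0.422 FPKM. Neighbours in this order overlapped in their ranges, and the mean of Ttr came mostly from 1 library, since its median was 1.45 FPKM. Alb, Apoa2, Apoc3, Apoh and Fga were at 1 FPKM or more in all 18 libraries and Ttr in 13. Apoa1 and Ahsg reached 1 FPKM in 4 libraries each, Fgb in 3 and Serpina1a in none. Hence 9 of the 10 passed the filter for testing, 1 FPKM in at least 3 libraries. Apoa1, Ahsg and Fgb passed it through the few libraries in which they were high.

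**Figure D1:**
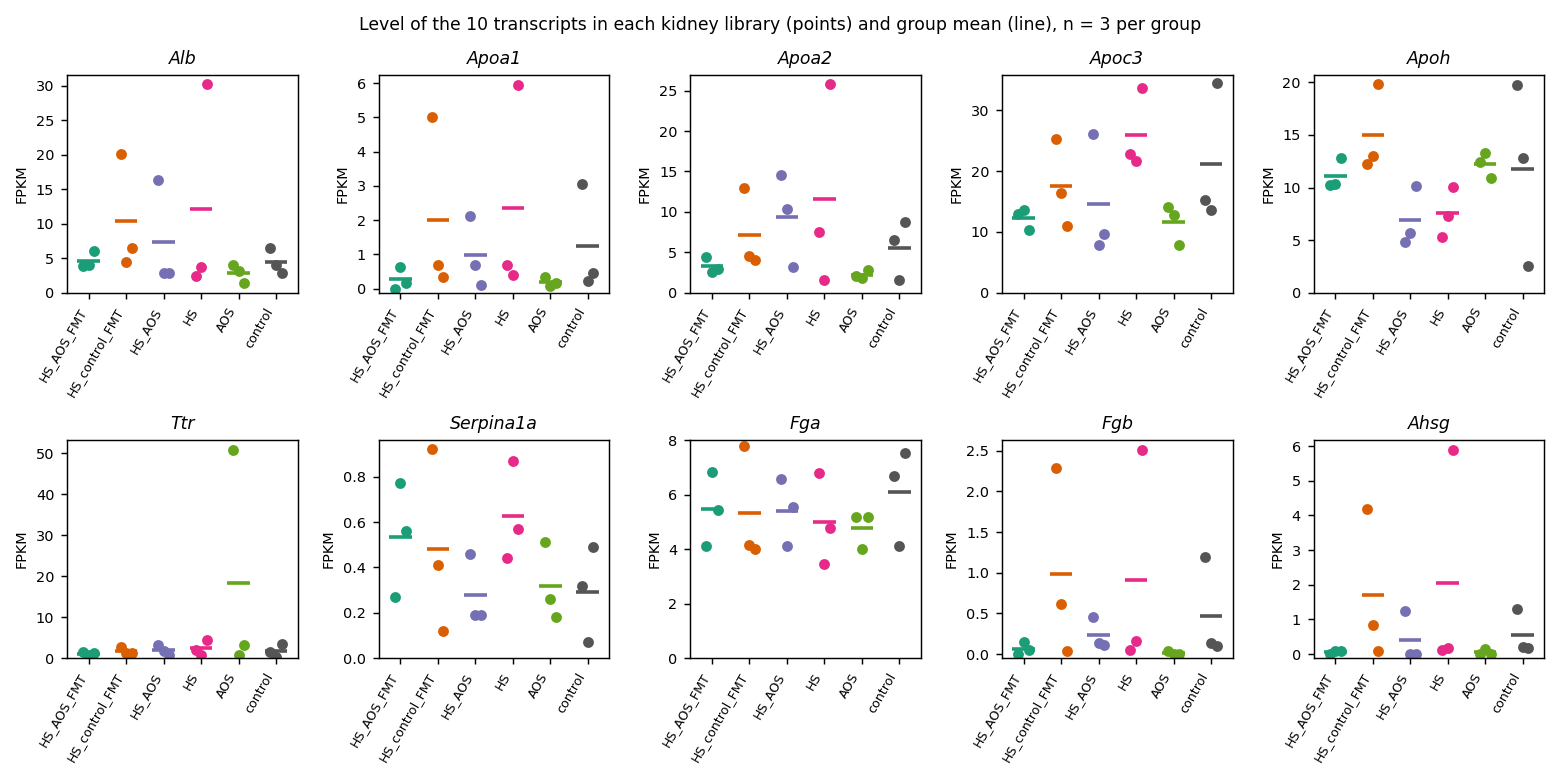
FPKM (y axis, linear, own scale per gene) of the 10 transcripts in each library (points), with the group mean (line) for the 6 groups of 3 (x axis). In Alb, Apoa1, Fgb and Ahsg the group means of HS and HS_control_FMT are set by 1 library each, and in Ttr the mean of AOS is set by 1 library at 50.8 FPKM.

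Alb, Apoa1, Fgb and Ahsg were highest in the same libraries, whatever their group. Grouping these 4 together was decided after their values were seen, and no test was made of the set. Alb, the most abundant protein of plasma, was 3.93, 3.98 and 6.07 FPKM in HS_AOS_FMT kidneys, 20.2, 4.46 and 6.53 FPKM in HS_control_FMT kidneys, 16.3, 2.90 and 2.86 FPKM in HS_AOS kidneys and 2.50, 3.70 and 30.2 FPKM in HS kidneys. It was 4.01, 3.11 and 1.45 FPKM in AOS kidneys and 6.50, 4.07 and 2.94 FPKM in control kidneys. HS replicate 3, HS_control_FMT replicate 1 and HS_AOS replicate 1 were the only libraries above 7 FPKM, and each had 2 group mates below that level.

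Ahsg encodes fetuin-A, a carrier protein that binds calcium phosphate. It was 0, 0.08 and 0.08 FPKM in HS_AOS_FMT kidneys, 4.18, 0.85 and 0.10 FPKM in HS_control_FMT kidneys, 1.23, 0 and 0 FPKM in HS_AOS kidneys and 0.11, 0.18 and 5.89 FPKM in HS kidneys. It was 0, 0.15 and 0 FPKM in AOS kidneys and 1.30, 0.21 and 0.17 FPKM in control kidneys. The 3 libraries that led for Alb were again high, joined by control replicate 1.

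Apoa1 encodes the main protein of high density lipoprotein. It was 0, 0.64 and 0.18 FPKM in HS_AOS_FMT kidneys, 5.0, 0.70 and 0.33 FPKM in HS_control_FMT kidneys, 2.12, 0.70 and 0.11 FPKM in HS_AOS kidneys and 0.69, 0.39 and 5.95 FPKM in HS kidneys. It was 0.33, 0.09 and 0.16 FPKM in AOS kidneys and 3.06, 0.24 and 0.47 FPKM in control kidneys. The same 4 libraries stood above 2 FPKM, and the other 14 were at or below 0.70 FPKM.

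Fgb was 0, 0.15 and 0.05 FPKM in HS_AOS_FMT kidneys, 2.29, 0.61 and 0.04 FPKM in HS_control_FMT kidneys, 0.46, 0.14 and 0.11 FPKM in HS_AOS kidneys and 0.05, 0.16 and 2.51 FPKM in HS kidneys. It was 0.04, 0 and 0 FPKM in AOS kidneys and 1.19, 0.13 and 0.10 FPKM in control kidneys. HS replicate 3, HS_control_FMT replicate 1 and control replicate 1 were the 3 libraries above 1 FPKM.

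Some other plasma protein transcripts of the liver were high in these libraries too. Serpina3k, a serine protease inhibitor of liver, was 8.31 FPKM in HS replicate 3, 6.55 in HS_control_FMT replicate 1, 3.02 in control replicate 1 and 1.86 in HS_AOS replicate 1, and at most 0.48 FPKM in the other 14 libraries. Mup3, a major urinary protein made by mouse liver, was 12.6, 6.94, 1.42 and 2.07 FPKM in the same order. In HS_control_FMT replicate 2 it was 1.83 FPKM, above control replicate 1. Hpx, which binds heme in plasma, was 3.39, 1.61, 1.33 and 0.72 FPKM. Of the 47 other plasma protein genes listed, 23 were highest in HS replicate 3, and in 16 the 2 highest libraries were HS replicate 3 and HS_control_FMT replicate 1. In only 8 of the 47 were HS replicate 3, HS_control_FMT replicate 1, HS_AOS replicate 1 and control replicate 1 the 4 highest. The 4 genes of this list with the highest mean, Proc, Apob, Apoc1 and Gc, did not share 1 pattern: Proc was 78.2 to 175 FPKM with its highest value in HS_control_FMT replicate 3, Apob peaked in HS replicate 1, Gc in control replicate 3 at 160 FPKM, and Apoc1 in HS replicate 3 at 64.7 FPKM.

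Among hepatocyte enzymes and transporters the sum of the low genes, but not of the whole list, had the same 4 leading libraries. Taken singly, 5 of the 25 listed genes had these 4 libraries highest. The sum over the list was 243 FPKM in HS replicate 3, below its median of 284 FPKM. Its Pearson correlation with the summed level of the 4 transcripts, both on log2(FPKM + 1), was 0.023. Of the 25 listed genes, 18 stayed below 1 FPKM in every library. The summed level of these 18 was 6.56 FPKM in HS replicate 3, 3.74 in HS_control_FMT replicate 1, 2.70 in HS_AOS replicate 1 and 2.36 in control replicate 1, against a median of 0.950 FPKM over the 18 libraries. Of the 25 genes, 24 were above 0 in HS replicate 3 and in HS_control_FMT replicate 1, and 12 to 21 in the other libraries. Cps1, the first enzyme of the urea cycle and one of the most abundant liver transcripts, was 0.53 FPKM in HS replicate 3 and 0.26 FPKM in HS_control_FMT replicate 1, and Cyp7a1, which starts bile acid synthesis, was listed at 0 in 17 of 18 libraries. Slco1a1, Cyp2d9, Gnmt and Bhmt, the 4 genes of this list with the highest mean, were at up to 274, 158, 36.0 and 7.57 FPKM and did not follow that order. Slco1a1 is known to be expressed by kidney tubules.

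The summed level of Alb, Apoa1, Ahsg and Fgb was 44.5 FPKM in HS replicate 3, 31.6 in HS_control_FMT replicate 1, 20.1 in HS_AOS replicate 1, 12.1 in control replicate 1 and 1.61 to 7.0 FPKM in the other 14. Transcripts of other tissues were high in some of these libraries. Fat genes were summed at 1490 and 1387 FPKM in HS replicate 3 and HS_control_FMT replicate 1, with Fabp4, Lpl, Cfd and Pnpla2 the highest of the 10, at 806 FPKM in control replicate 1 and at 244 FPKM in HS_AOS replicate 1, so that 3 of the 4 libraries were above the median of 410. The fat sum was also high in libraries where the 4 transcripts were low. It was 1061 FPKM in HS_AOS_FMT replicate 2, 839 in HS_AOS_FMT replicate 3 and 814 in AOS replicate 3. The 4 transcripts summed to 4.85, 6.38 and 1.61 FPKM there. The Pearson correlation of the fat sum with the sum of the 4 transcripts, both on log2(FPKM + 1), was 0.525, and 0.358 without HS replicate 3. Adrenal genes were at 590 FPKM in HS replicate 3 but at 1.53, 2.36 and 1.82 FPKM in HS_control_FMT replicate 1, HS_AOS replicate 1 and control replicate 1. In control replicate 3, where adrenal genes were highest, the 4 transcripts summed to 3.68 FPKM. Erythroid genes (Hba-a1, Hbb-bs, Hbb-bt and Bpgm leading) were at 6054 FPKM in HS_control_FMT replicate 1, 4723 in HS_AOS replicate 1 and 5452 in control replicate 1, against a median of 5087. Among the intestinal genes, 9 of 12 were below 1 FPKM everywhere, with a summed level of at most 0.35 FPKM, and Fabp2, Sis and Lct were at or near 0. The 3 intestinal genes that passed 1 FPKM, Mttp, Apoa4 and Fabp1, are also expressed by liver, Apoa4 stood in the plasma protein list as well, and Tff3 reached 0.26 FPKM. Among the pancreatic genes 8 of 10 were below 1 FPKM, with Ctrb1 and Cela2a at or below 0.43 FPKM and Ins2 at up to 1.06 FPKM. Cela1 was at 44.2 to 114 FPKM in all libraries and highest in control replicate 3. Whether liver RNA entered these 4 libraries was not tested, and in whole tissue a change in the number of cells of a type and a change in RNA per cell cannot be told apart.

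**Figure D2:**
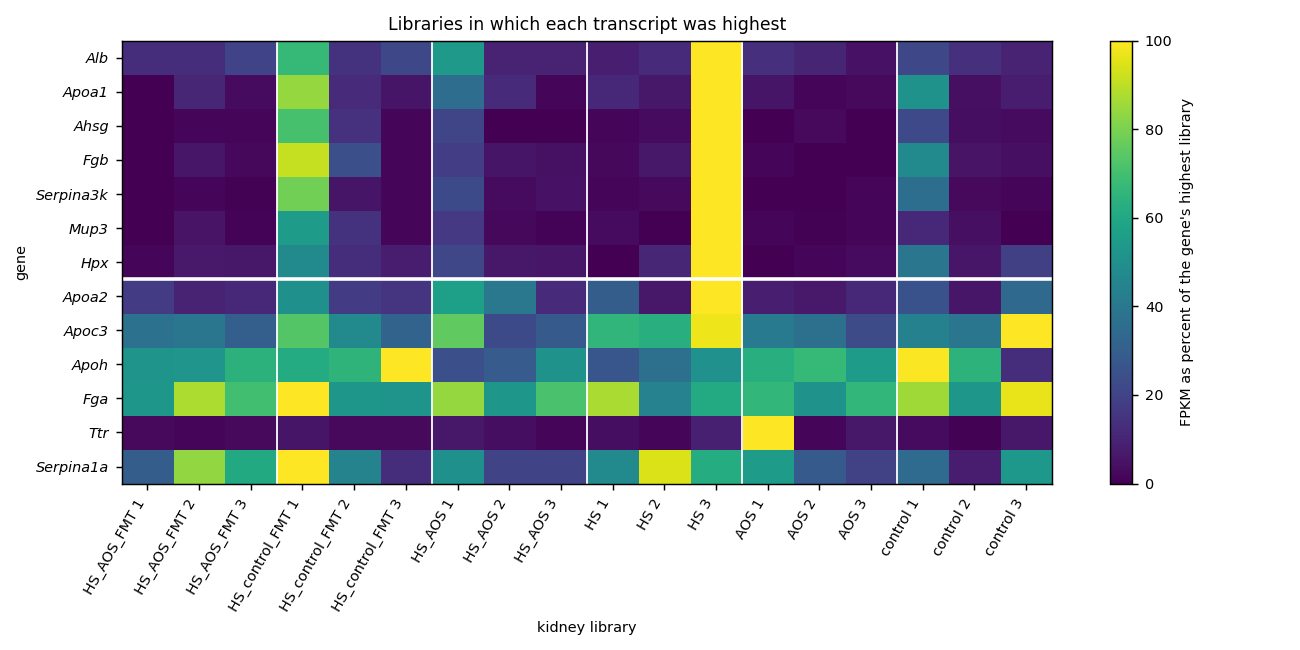
Level of 13 transcripts (rows) in the 18 libraries (columns) as percent of each gene's highest library (color scale), with white lines between groups and between the 7 genes highest in HS replicate 3 with HS_control_FMT replicate 1 next and the other 6. The upper 7 rows are brightest in HS replicate 3 and HS_control_FMT replicate 1, and the lower rows peak in several libraries.

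**Figure D3:**
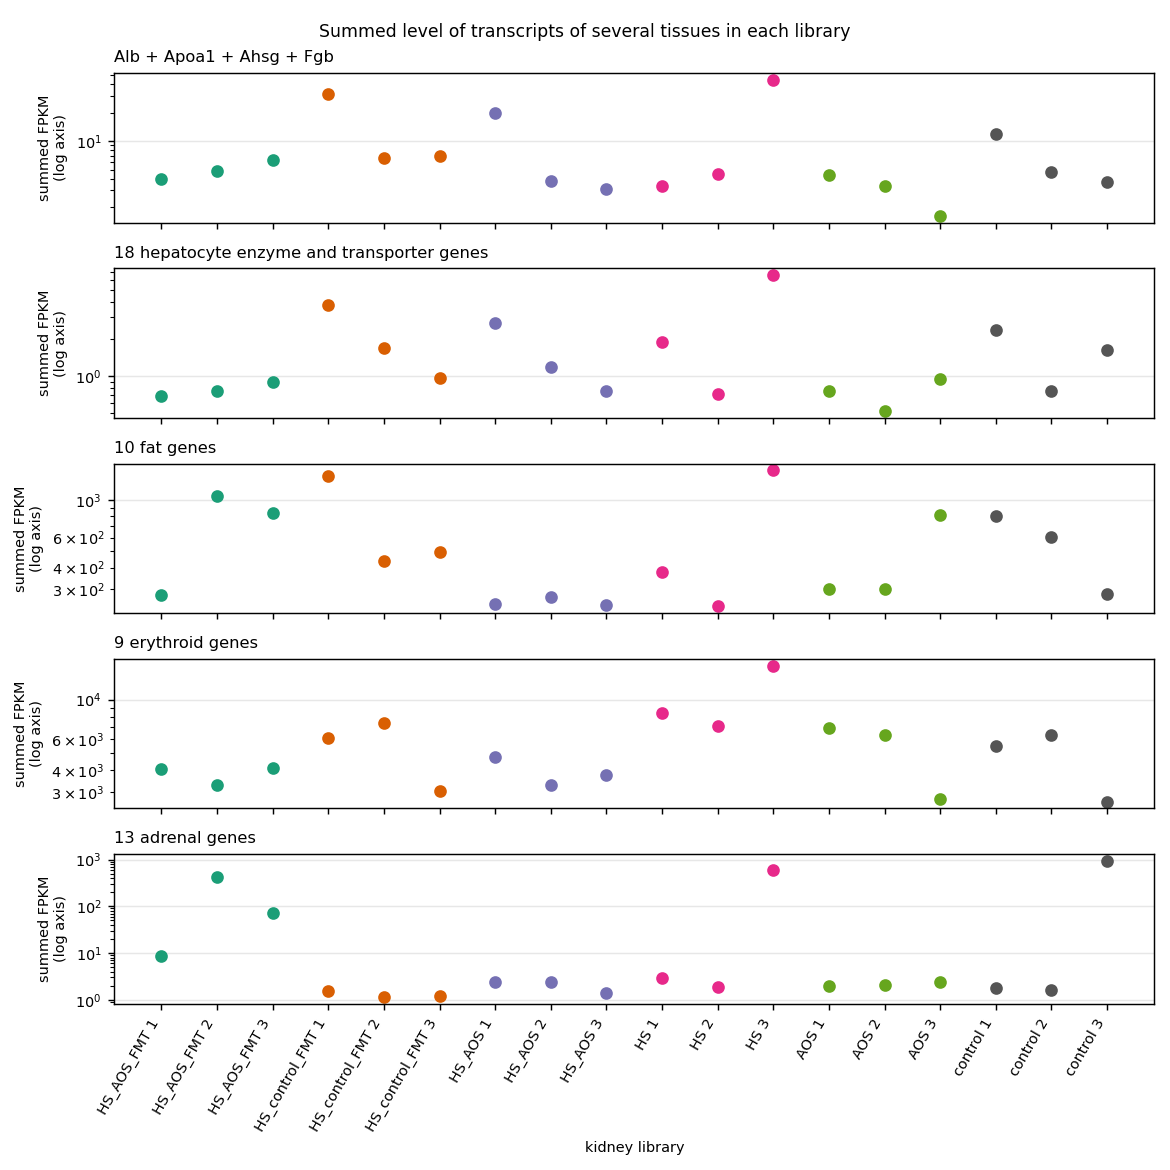
Summed FPKM (log axes) of Alb, Apoa1, Ahsg and Fgb, of 18 low hepatocyte genes, and of fat, erythroid and adrenal genes in each library (x axis), coloured by group. The first 2 panels share the same 4 leading libraries, and in the adrenal panel HS replicate 3, control replicate 3 and HS_AOS_FMT replicates 2 and 3 are the highest points.

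The size of the rise differed between genes. Relative to its median over the 18 libraries, HS replicate 3 was 7.55 times higher for Alb, 13.8 times for Apoa1, 20.9 times for Fgb and 45.3 times for Ahsg, and HS_control_FMT replicate 1 was 5.05, 11.6, 19.1 and 32.1 times higher. In the 5 libraries in which Ahsg was listed at 0, Alb was between 1.45 and 4.01 FPKM. Taking HS replicate 3 over HS_control_FMT replicate 1 after subtracting the median, the ratio was 1.10 for Fgb, 1.21 for Apoa1, 1.42 for Ahsg, 1.62 for Alb, 1.28 for Serpina3k and 1.84 for Mup3. Apoc3 (1.72) and Serpina1d (1.42) lay within that span, and Serpina1c (1.94) and Serpina1b (1.96) just above it. Other liver genes lay farther outside, with 2.48 for Apoa2, 2.29 for Hpx, 2.17 for Cps1, 5.56 for Hamp, 0.70 for Fabp1 and 0.68 for Fgg. Ttr was at 2.24 and Serpina1a at 0.29. Apoh (-0.34) and Fga (-0.15) were below their median in HS replicate 3.

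Correlations between the 10 transcripts across the 18 libraries, on log2(FPKM + 1), described the same pattern. The libraries of a correlation share depth and composition, and the values are a description with no test. Over all 45 pairs the median Pearson r was 0.408, with a range of -0.46 to 0.976. The 6 pairs among Alb, Apoa1, Fgb and Ahsg had r of 0.832 to 0.976, and with HS replicate 3 and HS_control_FMT replicate 1 left out 0.495 to 0.907. Spearman correlation of these pairs was 0.529 to 0.857. Among the other 6 transcripts the 15 pairs had a median r of 0.207, with a range of -0.46 to 0.594. That median was 0.401 without AOS replicate 1, the library far above the others for Ttr, and 0.112 without HS replicate 3 and HS_control_FMT replicate 1. The median Spearman correlation of the 15 pairs was 0.373.

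**Figure D4:**
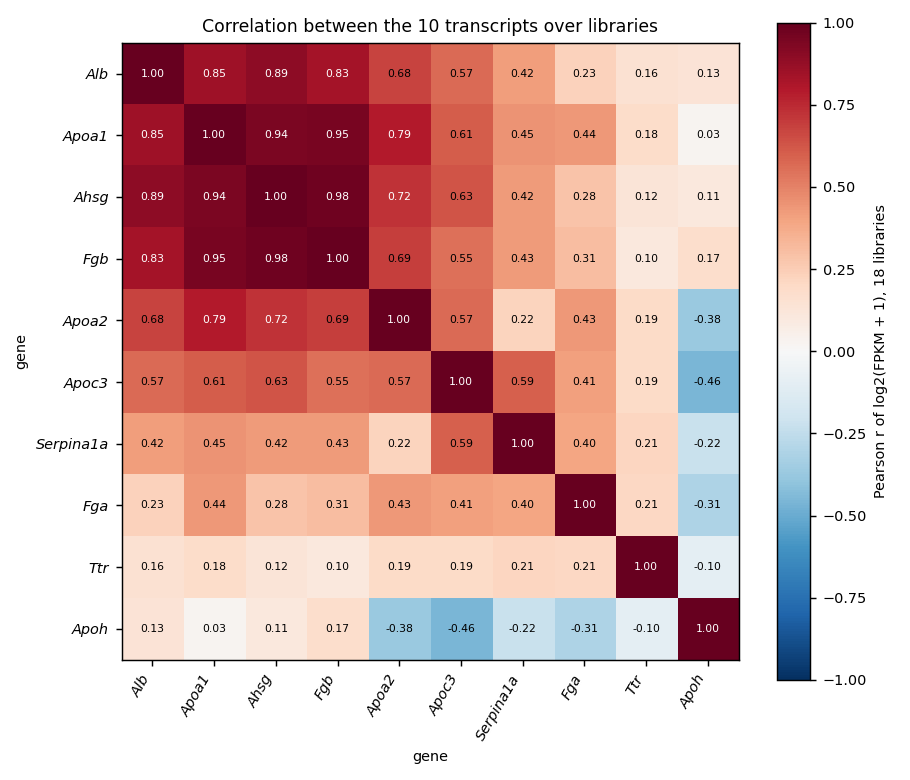
Pearson r of log2(FPKM + 1) between the 10 transcripts over 18 libraries (rows and columns are genes, color is r, each cell prints r). The block of Alb, Apoa1, Ahsg and Fgb lies at 0.832 to 0.976, and Apoh has its lowest values with Apoc3 (-0.46) and Apoa2 (-0.38).

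Alb, Apoa1, Fgb and Ahsg were grouped after their values were seen, and likeness to other genes was taken from the same values. Apoa1, Fgb and Ahsg passed the filter through few libraries, so genes high in the same libraries rank near them in any case. The likeness is therefore a description and no separate evidence for that grouping. The 3 tested genes most like each transcript, by Pearson r over 18 libraries, are given with that limit. For Fgb they were Ahsg (0.976), Serpina3k (0.974) and Apoa1 (0.952), for Ahsg they were Fgb (0.976), Mup3 (0.974) and Serpina3k (0.970), and for Apoa1 they were Serpina3k (0.967), Fgb (0.952) and Ahsg (0.944). For Alb they were Ahsg (0.893), Mup3 (0.873) and Serpina3k (0.866). For Apoh they were Mkrn1 (0.925), Gpc4 (0.913) and Bdh1 (0.909), and for Apoc3 they were Rps14 (0.869), Dda1 (0.868) and Srp14 (0.865). Fga was most like Postn, Zfand5 and Xdh (0.727 to 0.734), Ttr most like Klhdc9, Psmc1 and Cdh13 (0.617 to 0.704), and Apoa2 most like Fabp1, Fgg and Hamp (0.815 to 0.856). No gene of the liver lists was among the 3 for Apoh, Apoc3, Fga or Ttr. Without HS replicate 3 the genes named for Alb, Apoa1, Fgb and Ahsg stood at the same ranks, while for Apoa2 Fabp1 stood at rank 3, Fgg at rank 6 and Hamp at rank 27.

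Apoa2, the second main protein of high density lipoprotein, lay between the 2 patterns. It was 4.45, 2.61 and 2.92 FPKM in HS_AOS_FMT kidneys, 12.9, 4.51 and 4.02 FPKM in HS_control_FMT kidneys, 14.6, 10.3 and 3.18 FPKM in HS_AOS kidneys and 7.55, 1.62 and 25.8 FPKM in HS kidneys. It was 2.13, 1.81 and 2.85 FPKM in AOS kidneys and 6.50, 1.53 and 8.77 FPKM in control kidneys. HS replicate 3 was highest, but HS_AOS replicate 2 and control replicate 3 were above most others without a like rise in Ahsg.

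Apoc3, a lipoprotein inhibitor of triglyceride clearance, had the highest mean of the 10 and lies 2.6 kb from Apoa1. It was 12.9, 13.6 and 10.4 FPKM in HS_AOS_FMT kidneys, 25.3, 16.4 and 11.0 FPKM in HS_control_FMT kidneys, 26.1, 7.81 and 9.73 FPKM in HS_AOS kidneys and 22.8, 21.6 and 33.6 FPKM in HS kidneys. It was 14.1, 12.8 and 7.84 FPKM in AOS kidneys and 15.2, 13.6 and 34.6 FPKM in control kidneys. All 3 HS libraries were above all 3 HS_AOS_FMT libraries, and control replicate 3, which had the lowest Kap, was the highest of the 18. Its next highest libraries, HS replicate 3, HS_AOS replicate 1 and HS_control_FMT replicate 1, were those that led for Alb. Across libraries Apoc3 had a correlation of 0.628 with Ahsg and 0.606 with Apoa1, and of 0.511 and 0.487 without HS replicate 3. With the median level of the other plasma protein genes it was 0.575, and 0.458 without HS replicate 3 and control replicate 3. With the median level of the proximal tubule genes it was -0.65, and -0.36 without HS replicate 3 and control replicate 3.

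Apoh was 10.3, 10.3 and 12.8 FPKM in HS_AOS_FMT kidneys, 12.2, 12.96 and 19.9 FPKM in HS_control_FMT kidneys, 4.83, 5.71 and 10.1 FPKM in HS_AOS kidneys and 5.29, 7.32 and 10.1 FPKM in HS kidneys. It was 12.5, 13.3 and 10.9 FPKM in AOS kidneys and 19.8, 12.9 and 2.56 FPKM in control kidneys. Both FMT groups were above HS in all libraries, and control replicate 3 was the lowest of the 18. HS replicate 3 and HS_control_FMT replicate 1, the libraries highest in Alb, were near the Apoh median of 10.6 FPKM. HS_AOS replicate 1, also high in Alb, had the second lowest Apoh, 4.83 FPKM. Control replicate 1, high in Apoa1, Fgb and Ahsg, had the second highest, 19.8 FPKM.

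Fga was the steadiest of the 10, between 3.44 and 7.79 FPKM in all libraries. Group means were 5.46 ± 1.37 FPKM in HS_AOS_FMT, 5.32 ± 2.14 in HS_control_FMT, 5.41 ± 1.22 in HS_AOS, 5.003 ± 1.69 in HS, 4.78 ± 0.667 in AOS and 6.11 ± 1.78 FPKM in control kidneys (SD, n = 3 each). Although Fga and Fgb lie 8.6 kb apart and encode chains of 1 protein, the ratio of Fga to Fgb was 1.90 in HS replicate 3, 3.40 in HS_control_FMT replicate 1 and 5.61 in control replicate 1. It was 6.79 or more in the other libraries with Fgb above 0, and Fgb was listed at 0 in 3 libraries in which Fga was 4.01 to 5.17 FPKM. Fgg, the gamma chain, 11.1 kb from Fga, was 0.52 to 2.46 FPKM.

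Ttr carries thyroid hormone and retinol-binding protein in plasma, and it is made by liver and by the choroid plexus. It was 50.8 FPKM in AOS replicate 1, against 0.74 and 3.31 FPKM in the other AOS kidneys. The remaining 15 libraries were between 0.32 and 4.50 FPKM, with HS replicate 3 the highest of these. In AOS replicate 1 Alb was 4.01, Ahsg was listed at 0 and Ins2, the pancreatic insulin gene, was 0.45 FPKM. The other 9 transcripts lay within the range of the remaining 17 libraries there.

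Serpina1a, an alpha-1-antitrypsin gene, was 0.07 to 0.92 FPKM in the 18 libraries and was not tested. It belongs to a family of near-identical copies on chromosome 12, and Serpina1c, 31.3 kb away, was 9.91 FPKM in HS replicate 3, 5.37 in HS_control_FMT replicate 1, 3.79 in control replicate 1 and 2.05 in HS_AOS replicate 1, the 4 libraries in which it was highest. Serpina1d, 79.7 kb away, and Serpina1b, 115.1 kb away, were at 1.44 to 14.9 and 4.40 to 28.9 FPKM, both highest in HS replicate 3. How the submitters' counting divided reads among these copies is not given in the sources used here, so single levels of this family are uncertain.

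None of the 9 tested transcripts passed in any of the comparisons between groups, by limma on log2(FPKM + 1) with Benjamini-Hochberg adjustment over 12385 tested genes and a threshold of 0.05. In HS_AOS_FMT vs HS 0.977% of all tested genes passed, in HS_control_FMT vs HS 0.751%, in HS_AOS_FMT vs HS_control_FMT 3.99%, in HS_AOS vs HS 2.3%, in HS vs control 0.0646%, in AOS vs control 0.0646%, and in the interaction (the AOS change under HS minus that without HS) 0.0727%. At shares this small, 0 of 9 does not set the transcripts apart from other genes. At an unadjusted p under 0.05, Apoc3 alone counted, in HS_AOS_FMT vs HS (18.1% of all genes) and in HS_AOS vs HS (20.3%), and none of the 9 counted in HS_control_FMT vs HS (15.2%), HS_AOS_FMT vs HS_control_FMT (19.8%), HS vs control (6.63%), AOS vs control (7.28%) or the interaction (15%).

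Against HS, the HS_AOS_FMT kidneys had 7 of 9 transcripts lower and 2 higher, with a median log2 change of -0.61, where all tested genes had a median of 0.00. Without HS replicate 3 it was 6 lower and 3 higher, with a median of -0.12. Apoc3 had a log2 change of -1.0 ± 0.42 (SE, adjusted p = 0.222), with 12.3 ± 1.69 FPKM in HS_AOS_FMT and 26.0 ± 6.62 FPKM in HS (SD, n = 3 each). Its 3 HS_AOS_FMT values lay below the 3 HS values, as did those of Ahsg, and the 3 values of Apoh lay above. Groups did not overlap in 29.5% of all tested genes. For Ahsg the log2 change of -0.98 ± 0.63 (SE, adjusted p = 0.444) was -0.12 without HS replicate 3 and -2.25 with 0.1 in place of 1 added to the FPKM, and for Alb the change of -0.52 was 0.46 without it.

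HS_AOS kidneys compared with HS had 7 of 9 lower and 2 higher, with a median log2 change of -0.33. Without HS replicate 3 the count turned round to 1 lower and 8 higher, with a median of 0.19. Without HS_AOS replicate 1 it was 8 lower and 1 higher, with a median of -0.53. Of all tested genes, 49.1% were lower with all libraries, 47.8% without HS replicate 3 and 51.1% without HS_AOS replicate 1. Apoc3 had -0.95 ± 0.42 (SE, adjusted p = 0.217), with 14.5 ± 10.1 FPKM in HS_AOS and 26.0 ± 6.62 FPKM in HS (SD, n = 3 each). It was -1.45 (adjusted p = 0.0383) without HS_AOS replicate 1, a library high in Alb, in a fit in which 6.39% of all genes passed. It was -0.60 after removal of a GC and length trend from every library. None of the 9 had groups that did not overlap, against 24.7% of all genes. Both comparisons use the same HS libraries.

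HS_control_FMT kidneys compared with HS had 5 of 9 higher and 4 lower, with a median log2 change of 0.06. Without HS replicate 3 the count was 8 higher and 1 lower, with a median of 0.64, and without HS_control_FMT replicate 1 it was 1 higher and 8 lower, with a median of -0.48. Of all tested genes, 65.6% were lower with all libraries, 64% without HS replicate 3 and 67.7% without HS_control_FMT replicate 1. Apoh was 15.01 ± 4.22 FPKM in HS_control_FMT and 7.56 ± 2.39 FPKM in HS (SD, n = 3 each), a log2 change of 0.91 ± 0.47 (SE, adjusted p = 0.374), and its groups did not overlap, as in 25.3% of all genes. In HS_AOS_FMT the Apoh mean was 11.1 ± 1.44 FPKM (SD, n = 3), a log2 change of 0.54 ± 0.47 against HS (SE, adjusted p = 0.579). HS_AOS_FMT compared with HS_control_FMT had 8 of 9 lower and 1 higher, with a median log2 change of -0.73 where all genes had 0.07. Without HS_control_FMT replicate 1 it was again 8 lower, with a median of -0.27. Of all tested genes, 36.5% were lower with all libraries and 34.5% without HS_control_FMT replicate 1. Ahsg was the only transcript whose groups did not overlap there, against 29.3% of genes, with a log2 change of -1.06 ± 0.63 (SE, adjusted p = 0.382) that was -0.44 without HS_control_FMT replicate 1 and -2.66 with 0.1 added to the FPKM.

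HS kidneys compared with control had 7 of 9 higher and 2 lower, with a median log2 change of 0.38, and none had groups that did not overlap (8.53% of all genes). Without HS replicate 3 the count turned round to 1 higher and 8 lower, with a median of -0.34, and without control replicate 3 it was again 7 higher, with a median of 0.32. Of the 12385 tested genes, 6258 were higher with all libraries, 6155 without HS replicate 3 and 8411 without control replicate 3. The direction of Alb and Ahsg turned on 1 library: Alb was 0.59 ± 0.76 (SE, adjusted p = 0.949) and -0.39 without HS replicate 3, and Ahsg was 0.49 ± 0.63 (SE, adjusted p = 0.949) and -0.37 without it. AOS kidneys compared with control had 7 of 9 lower and 2 higher, with a median of -0.50 where all genes had -0.09 and 73.4% of them were lower. Without control replicate 3 it was 8 of 9 lower, with a median of -0.43, and 53.8% of all genes were lower. Without control replicate 1, the control library highest in Alb, it was 7 of 9 lower, with a median of -0.18. All genes then had a median of -0.14, and 76.3% of them were lower, so the count was near that of all genes. With all libraries, Fgb and Ahsg had groups that did not overlap in AOS vs control, as in 13.1% of genes. Their log2 changes were -0.46 ± 0.43 and -0.50 ± 0.63 (SE, adjusted p = 0.730 and 0.786). With 0.1 added to the FPKM they were -1.80 and -1.85, and the change of Ahsg was -0.18 without control replicate 1. Ttr had the largest change, 1.58 ± 0.89 (SE, adjusted p = 0.674), and 0.17 without AOS replicate 1. The AOS effect in HS minus that in control had its largest value in Ttr too, -1.74 ± 1.26 (SE, adjusted p = 0.532), and -0.33 without AOS replicate 1.

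**Figure D5:**
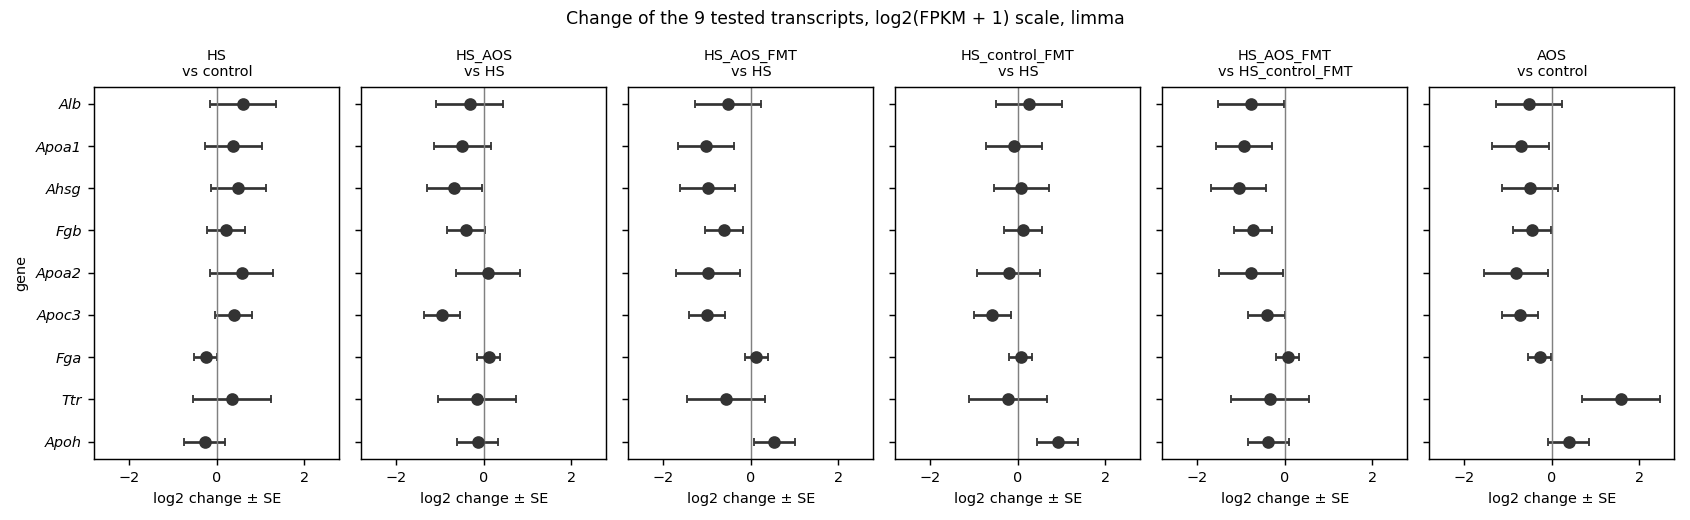
Log2 change on the log2(FPKM + 1) scale (x axis, points with SE bars, limma) of the 9 tested transcripts (rows) in the 6 comparisons between groups of 3. None passed the adjusted threshold of 0.05, and Ttr has the longest bars (SE 0.89).

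In the other lists, Mttp, which loads lipid onto apolipoprotein B and was listed with the intestinal genes, rose by 0.77 ± 0.14 on the log2 scale in HS_AOS vs HS (SE, adjusted p = 0.0174), but did not pass without HS replicate 3 (0.68, adjusted p = 0.111). In HS_AOS_FMT vs HS_control_FMT, Slc6a19, the neutral amino acid transporter of the proximal tubule, was higher by 1.17 ± 0.30 (SE, adjusted p = 0.0424), and with HS_AOS_FMT replicate 1 left out the adjusted p was 0.156. Hnf4a was 158 to 259 FPKM in all libraries. None of the 28 tested genes of the other plasma protein list passed in any comparison. In HS_AOS vs HS 24 of the 28 were lower, with a median log2 change of -0.41, and without HS replicate 3 it was 15 of 28, with a median of -0.01. With all libraries, all 12 adrenal and all 9 fat genes tested were lower in HS_AOS vs HS too, with medians of -1.64 and -1.16. Without HS replicate 3 it was 7 of the 12 and 5 of the 9, with medians of -0.04 and -0.01. In HS_AOS_FMT vs HS 18 of the 28 were lower, with a median of -0.45, and 14 without HS replicate 3. Fat and adrenal genes went the other way there with all libraries. Of the 9 fat genes 8 were higher and of the 12 adrenal genes 8, with medians of 0.51 and 0.58. In HS vs control 21 of the 28 were higher, with a median of 0.12, and 10 without HS replicate 3. With all libraries, 6 of the 9 fat and 7 of the 12 adrenal genes were lower in HS vs control, with medians of -0.16 and -0.15. The HS libraries are shared by these 3 comparisons. In HS_AOS_FMT vs HS_control_FMT 19 of the 28 were lower, with a median of -0.18. Without HS_control_FMT replicate 1 it was 14 of the 28, with a median of -0.01. In AOS vs control 22 of the 28 (78.6%) were lower, with a median of -0.41, against 73.4% of all genes. Without control replicate 3 it was again 22, against 53.8% of all genes. Without control replicate 1 it was 20 (71.4%), with a median of -0.25, against 76.3% of all genes.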

How the data were processed

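RNA was taken from kidney and libraries were made with standard Illumina protocols, per the labels' protocols. Bowtie 0.12.2 and the build mm10 are named, per the submitters' processing notes. How reads were assigned to genes, with which annotation and strand setting, is not given in the sources used here. All deposited values are FPKM per gene symbol, made by the authors, with 19545 rows and no counts, so depth is unknown. The unit was read from the values: FPKM times transcript length summed to nearly the same total in each library (CV 0.93%, against 4.29% for the plain sum).

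The test named first for counts could not be used. The 12385 genes that reached 1 FPKM in 3 or more of 18 libraries were tested with limma 3.58.1 (R 4.3.3, trend and robust) on log2(FPKM + 1), which understates changes of low genes, with 1 mean per group over all 18 samples and Benjamini-Hochberg adjustment at 0.05. The limma step was tested on simulated data.

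The members, gene lists and comparisons were chosen with earlier results of these data known. Named genes were the 10 members, the 4 genes of each list with the highest mean, listed genes that passed, and for each tested member the 3 tested genes with the highest Pearson r; some of these are not reported here. Promoters are from RefSeq, GRCm38.p6. Serpina3k, Mup3, Hpx, Cps1, Cyp7a1 and Serpina1b and others outside that rule were picked after their values were seen. Alternatives were quantile normalization, other filters and pseudocounts, fits without the trend option, only the compared groups, removal of a GC and length trend, a replicate block and leaving out libraries. Same-numbered samples of HS and control deviated together (correlations of 0.121 to 0.243 in the 3 pairs), which comes from the data and not from a label, and in none of the other group pairs were all 3 over 0.1. The numbers of higher and lower genes without single libraries were added after seeing the data.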

Additional observations from a re-analysis of the deposited data

How the results depend on the processing

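Of 125 alternatives run on the 7 counts of members that passed, 124 left the count at 0. The exception was HS_AOS vs HS without HS_AOS replicate 1, where Apoc3 passed (leave-one-out range 0 to 1 members) along with 6.39% of all genes, against 2.3% with all libraries. Of 13 log2 changes of single members followed over 200 alternatives, 193 kept their direction and side of the threshold and 6 reversed. Without control replicate 3, HS replicate 3 and HS_AOS_FMT replicate 2, Alb was -0.60 in HS vs control (0.59 with all libraries) and 0.54 in HS_AOS_FMT vs HS (-0.52), and Ahsg was -0.54 in HS vs control (0.49). Leaving out single replicates gave ranges of -0.39 to 1.19, -1.12 to 0.46 and -0.37 to 0.94 for these 3. The other reversals came from leaving out HS replicate 3 alone, the library highest in both genes; why that library is high was not tested. Mttp lost its call in HS_AOS vs HS under 7 alternatives and Slc6a19 lost its call in HS_AOS_FMT vs HS_control_FMT under 8. The median correlation over the 45 pairs, 0.408, was 0.215 without HS replicate 3 and HS_control_FMT replicate 1, an alternative chosen after seeing the data, and 0.236 to 0.457 when single libraries were left out, lowest without HS_control_FMT replicate 1.

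Deviations of same-numbered samples had a median correlation of -0.009 (-0.356 to 0.312, 45 pairs), with 14 over 0.1. HS vs control, the comparison in which all 3 pairs were over 0.1, had 7 genes with the replicate number as a block and 8 without. With the replicate number as a block, 0 members passed in each of the 7 comparisons, and the count over all genes was 89 in HS_AOS vs HS (285 without the block), 37 in HS_AOS_FMT vs HS (121) and 276 in HS_AOS_FMT vs HS_control_FMT (494). HS_AOS vs HS had 0 genes by limma without HS replicate 2, without HS replicate 3, and without HS replicate 3 and HS_control_FMT replicate 1, with 1501 to 1885 genes at an unadjusted p under 0.05. It had 1 gene with the compared groups only and 828 with control replicate 3 left out of the fit. Low levels near 0 and the unknown depth limit what can be said of Fgb, Ahsg and Serpina1a.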
